A study of Mus musculus with 7 samples.

Results

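The genes described here are the 6 enzymes that write and remove methyl marks on cytosine in DNA, Dnmt1, Dnmt3a, Dnmt3b, Tet1, Tet2 and Tet3, found by symbol among the 20142 genes that the expression table lists once. All 6 were present. They were measured by RNA sequencing in EML cells, a mouse Erythroid-Myeloid-Lymphoid line that self-renews as a multipotent blood precursor and was made with a dominant-negative retinoic acid receptor. Live (Annexin V-negative) cells were sorted by the surface marker CD34 into 4 CD34-negative and 3 CD34-positive libraries. All 7 carry the strain label C57BL/6, a bone marrow tissue label and a postnatal age. The tissue and age labels sit beside a source label that names the line, and the genotype label of the CD34-negative libraries reads CD43. Groups follow the titles. No treatment is named for either group. EML is 1 line, and nothing in the labels says that the replicates were separate cultures, so a p-value reflects how far these libraries scatter, and that scatter may be technical.

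The descriptions carry a second number. Replicate 1 of both groups has number 3 (3a in the CD34-positive library), replicate 2 has number 2, and CD34-positive replicate 3 shares number 4 with CD34-negative replicates 3 (number 4) and 4 (number 4a). The question asked of each gene is whether CD34-positive and CD34-negative cells differ, over all libraries and within equal numbers. Values below are listed in the order of replicates 1 to 4 for CD34-negative and 1 to 3 for CD34-positive cells.

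DNMT1 copies existing methylation onto the new strand when DNA is replicated, together with UHRF1, which reads hemimethylated sites. DNMT3A and DNMT3B place methyl groups on unmethylated sites. TET1, TET2 and TET3 oxidize 5-methylcytosine to 5-hydroxymethylcytosine and beyond, using iron and 2-oxoglutarate, and base excision repair can then restore cytosine. In blood, loss of Dnmt3a or Tet2 is known to favour self-renewal of stem cells over differentiation, and both genes are often mutated in human myeloid disease.

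Levels are given in FPKM, which divides the fragments of a gene by its transcript length and by the size of the library, so levels are per length. Levels still moved with transcript length between library numbers, as given further on, which bears on every order, share and ratio between genes below. No depth is known for any library. The libraries numbered 2 and 3 spent 27.5% to 36.9% of their summed FPKM on ribosomal protein genes, and those numbered 4 spent 2.30% to 4.22%. Within number 4 the single gene Mir703 took 34.6% and 13.2% of the summed FPKM in CD34-negative replicates 3 and 4. It was at 0 in CD34-positive replicate 3 and took at most 0.253% in the libraries numbered 2 and 3. The part of this imbalance in the CD34 differences of number 4 was not tested. A level of 1 FPKM was reached by 8606 to 9117 genes. The sorted marker Cd34 was at 91.8, 19.3, 2.67 and 6.02 FPKM in CD34-negative and at 147, 256 and 153 FPKM in CD34-positive libraries. All 5 precursor markers were present, with a summed level of 574 to 753 FPKM in CD34-positive and 470 to 1095 FPKM in CD34-negative libraries. They did not move together. Cd34 was higher in CD34-positive libraries without overlap, as were 2.67% of tested genes. Gata2 was lower without overlap, at means of 85.6 against 295 FPKM, as were 3.01% of tested genes. Of other lineages, the summed level of 5 neutrophil and monocyte markers was 1234 to 2355 FPKM in CD34-positive and 124 to 1308 FPKM in CD34-negative libraries, although Elane was at 0 in all but 1 library. It was 53.8 to 649 against 134 to 2006 FPKM for 6 erythroid markers, and 2124 to 3203 against 1646 to 10408 FPKM for 5 mast cell markers. Within these sums Hbb-b1 reached 1405 FPKM and Cpa3 reached 3134 FPKM. Gene by gene, 5 of the 6 erythroid markers (Gata1, Klf1, Epor, Car1 and Alas2) and 4 of the 5 mast cell markers (Cma1, Mcpt4, Hdc and Ms4a2) were lower in CD34-positive libraries with no overlap between the groups, as were 3.01% of tested genes. The remaining mast cell marker, Cpa3, had the higher mean in CD34-positive libraries, 2400 against 1466 FPKM, with overlap. The remaining erythroid marker, Hbb-b1, averaged 254 against 406 FPKM, also with overlap. Of the 5 neutrophil and monocyte markers, Ctsg alone was higher in CD34-positive libraries without overlap, at means of 404 against 126 FPKM, as were 2.67% of tested genes. The erythroid regulator Gata1 averaged 14.9 against 90.3 FPKM and the mast cell protease Cma1 173 against 2000 FPKM. The part of these cell types in the results below was not tested. Markers of B cells summed to at most 1.77 FPKM and those of T cells to at most 0.876 FPKM, with Ms4a1, Cd3e and Cd8a at 0 in all 7 libraries. Markers of stroma and endothelium summed to 38.9 to 63.3 FPKM in CD34-positive and 16.6 to 53.5 FPKM in CD34-negative libraries, nearly all of it from Pdgfrb.

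The 250 bases upstream of 2 start sites are printed because Dnmt3b showed the largest difference between the CD34 groups among the 6 genes and Tet2 the largest difference between library numbers. They are from RefSeq, build GRCm38.p6, 5′ to 3′ on the gene's strand, with each CG dinucleotide in capitals. The Dnmt3b window is chr2:153649199-153649448 on the + strand and the Tet2 window is chr3:133544391-133544640 on the - strand.
Dnmt3b: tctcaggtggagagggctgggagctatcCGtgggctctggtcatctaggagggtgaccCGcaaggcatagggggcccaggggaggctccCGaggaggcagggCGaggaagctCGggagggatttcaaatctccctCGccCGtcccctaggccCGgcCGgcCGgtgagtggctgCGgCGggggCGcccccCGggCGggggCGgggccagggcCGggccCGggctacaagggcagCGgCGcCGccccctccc
Tet2: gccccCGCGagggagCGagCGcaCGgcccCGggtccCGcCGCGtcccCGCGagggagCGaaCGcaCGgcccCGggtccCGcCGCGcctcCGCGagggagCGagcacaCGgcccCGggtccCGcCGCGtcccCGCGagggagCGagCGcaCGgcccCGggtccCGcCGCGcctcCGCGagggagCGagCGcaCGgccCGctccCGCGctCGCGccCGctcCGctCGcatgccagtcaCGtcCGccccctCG
The Dnmt3b window holds 21 CG dinucleotides at 75.2% G and C, and the Tet2 window holds 51 at 83.6%. The median of 32851 mouse promoter windows of this length was 6 CG dinucleotides and 52.4% G and C, and 83.7% of windows held fewer than that of Dnmt3b and 99.9% fewer than that of Tet2. All 6 genes had a window, 10 in all. The GC box letters GGGCGG occurred on either strand of both printed windows, as in 32.7% of all windows. The letters GATAAG, bound by GATA factors, were in none of the 10 windows and in 6.55% of all. The letters TTTNNCGC, of the kind that E2F factors bind, were in 1 of 3 Dnmt1 windows and in no other window of the 6 genes, against 4.28% of all. These are matches of letters and show no binding.

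Dnmt1, the maintenance enzyme, was the most abundant of the 6 genes in every library. It was at 83.1, 57.1, 59.3 and 65.6 FPKM in CD34-negative cells and at 132, 69.3 and 84.7 FPKM in CD34-positive cells. The groups overlapped, since the CD34-positive value of 69.3 lay below the highest CD34-negative one. CD34-positive libraries averaged 95.4 ± 32.8 FPKM (SD, n = 3), and CD34-negative libraries 66.3 ± 11.8 FPKM (SD, n = 4). The difference was 0.48 on the log2(FPKM + 1) scale used for every fit (SE 0.37, 95% interval -0.36 to 1.33; limma adjusted p = 1.0) and did not pass the threshold of 0.05. Without CD34-positive replicate 1 it was 0.22. Within equal numbers Dnmt1 was higher in the CD34-positive library each time, by 0.66 in number 3, 0.28 in number 2 and 0.44 in number 4, where the mean of the 2 CD34-negative libraries was used. With the number as a block the difference was 0.46 with a smaller error (SE 0.14, interval 0.13 to 0.78; adjusted p = 0.131), again short of the threshold. In bulk RNA, more RNA per cell and a larger share of cells with the transcript cannot be told apart, here and below.

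Dnmt3b, a de novo methyltransferase, had the largest difference of the 6. It was at 26.9, 10.6, 3.58 and 6.61 FPKM in CD34-negative and at 34.7, 31.3 and 16.9 FPKM in CD34-positive libraries. CD34-negative replicate 1 was above CD34-positive replicate 3, so the groups overlapped, and the other 3 CD34-negative libraries were below every CD34-positive one. The mean of the CD34-positive libraries, 27.6 ± 9.45 FPKM (SD, n = 3), was 2.31-fold that of the CD34-negative ones, 11.9 ± 10.4 FPKM (SD, n = 4). The log2 difference was 1.41 (SE 0.59, interval 0.06 to 2.76), with an adjusted p of 0.853 by limma, so it did not pass. Within numbers it was 0.35 in number 3, 1.47 in number 2 and 1.60 in number 4, and in number 4 it was 1.97 against the library numbered 4 and 1.23 against 4a. With the number as a block it was 1.19 (SE 0.29, interval 0.49 to 1.89; adjusted p = 0.0964). Over all 7 libraries left out in turn the blocked difference was 0.91 to 1.55 with an adjusted p of up to 0.531. Without CD34-negative replicate 1 it was 1.55 and passed (limma adjusted p = 0.0451), as it did without CD34-positive replicate 1 (adjusted p = 0.0453). These are not 2 separate results. Number 3 has 1 library per group, so either fit takes its CD34 difference from numbers 2 and 4 alone. The number that drops out, number 3, has the smallest Dnmt3b difference, 0.35. In the 2 fits 2.49% and 2.48% of all tested genes passed as higher.

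Dnmt3a, the other de novo enzyme, showed no common direction. Its values of 5.34, 2.66, 8.51 and 4.82 FPKM in CD34-negative libraries enclosed those of 6.81, 3.88 and 5.36 FPKM in CD34-positive ones. The means were 5.33 ± 2.42 FPKM (SD, n = 4) and 5.35 ± 1.46 FPKM (SD, n = 3). The difference was 0.06 (SE 0.37, interval -0.78 to 0.89; adjusted p = 1.0) and 0.12 with the block (SE 0.23; adjusted p = 0.781). Median-ratio and quantile scaling turned its sign, to -0.03 and -0.05. It was higher in the CD34-positive library by 0.30 in number 3 and 0.42 in number 2, and -0.23 in number 4, where the sign depended on the CD34-negative library (-0.58 against 4 and 0.13 against 4a).

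**Figure D1:**
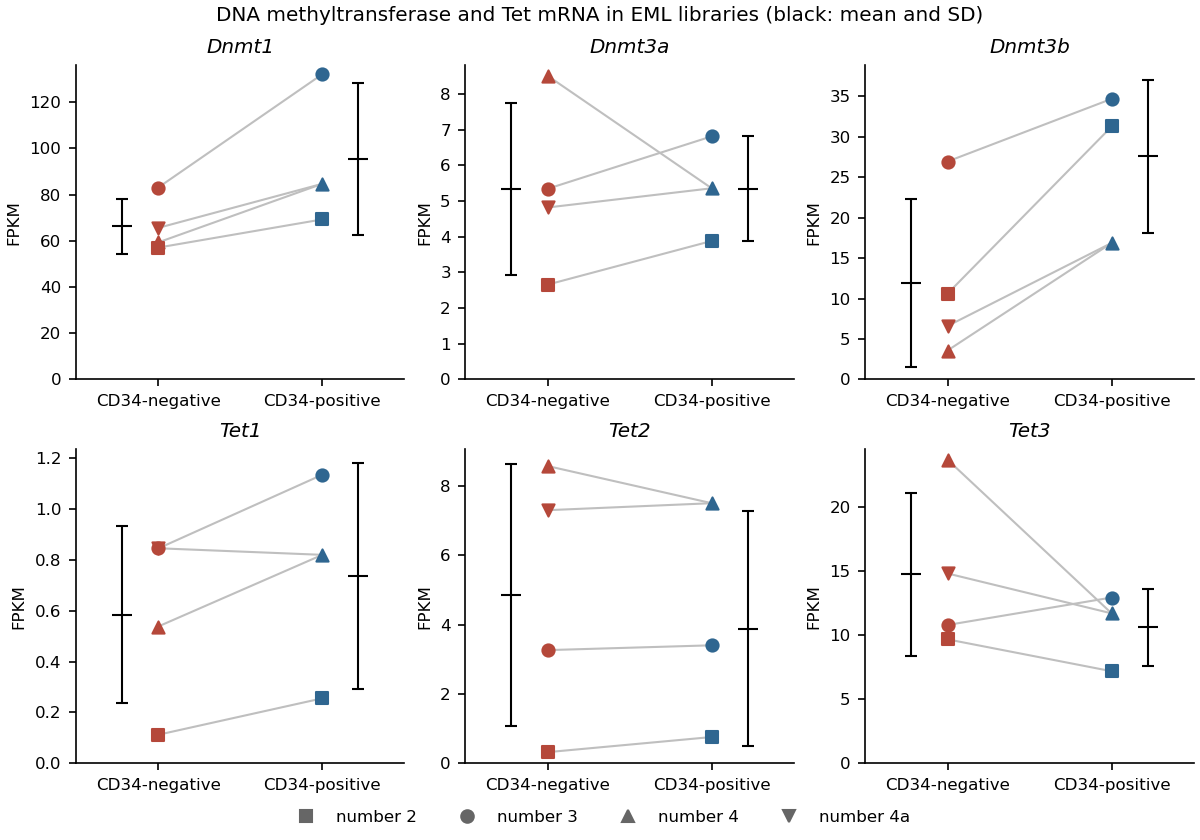
FPKM of each of the 6 genes in the 4 CD34-negative and 3 CD34-positive libraries, 1 panel per gene with its own axis; points are libraries, their shape is the description number, grey lines join equal numbers (4a is joined to CD34-positive 4), and black bars are means with SDs. For all 6 genes the groups overlap, and the means are farthest apart in ratio for Dnmt3b, 27.6 against 11.9 FPKM.

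The members are read here against the whole table. No gene of the 9259 tested passed the threshold as higher or lower (0% each way) in the fit of 2 groups, where an unadjusted p under 0.05 was reached by 313 higher (3.38%) and 210 lower genes (2.27%). None passed with the block either, where those counts were 1188 and 846 (12.8% and 9.14%) and the smallest adjusted p was 0.0767. Dnmt3b ranked 506 and Dnmt1 953 of 9259 by p with the block. Of the 5 tested members, Dnmt1 and Dnmt3b were higher within all 3 numbers, which 29.0% of tested genes were, and none was lower within all 3, which 25.0% were. The median difference of all tested genes was 0.09.

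**Figure D2:**
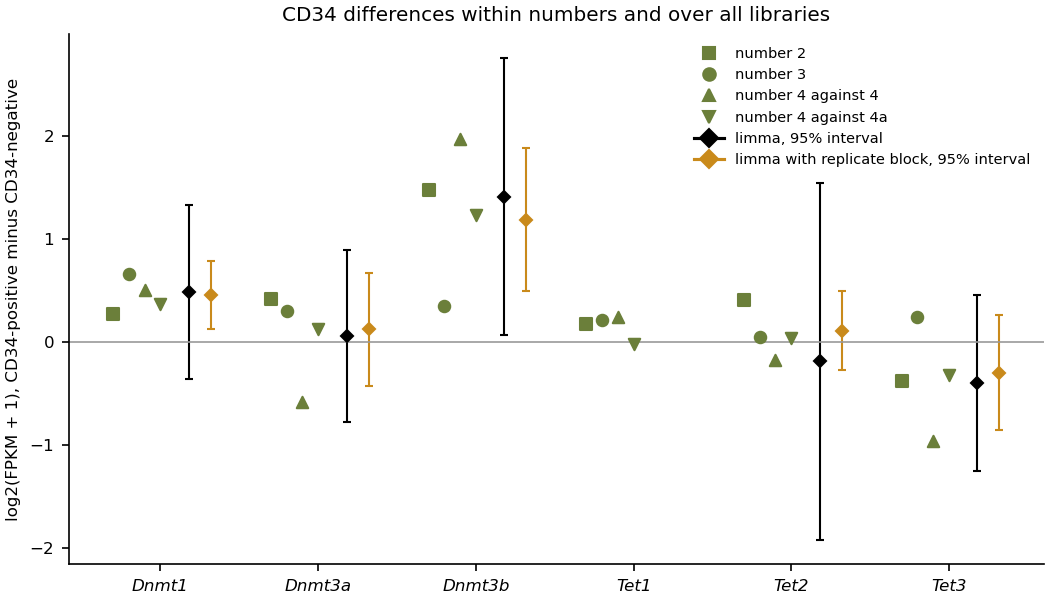
Difference between CD34-positive and CD34-negative libraries for each gene on the log2(FPKM + 1) scale; green markers are differences within numbers 2, 3 and 4 (the last against 4 and 4a), and diamonds are limma estimates with 95% intervals without (black) and with (orange) the number as a block, which Tet1 lacks because it was not tested. All green markers of Dnmt1 and Dnmt3b lie above 0, and those of Tet2 and Tet3 lie on both sides of 0.

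Dnmt3b also took a changing part of the methyltransferase transcripts. Its share of the summed FPKM of Dnmt1, Dnmt3a and Dnmt3b was 23.4%, 15.1%, 5.01% and 8.58% in CD34-negative and 19.97%, 29.9% and 15.8% in CD34-positive libraries, a ratio that no scaling factor of a library can move but that may move with transcript length. In number 3 the share was higher in the CD34-negative library, and in numbers 2 and 4 in the CD34-positive one. The groups overlapped at means of 13.0% ± 8.06 (SD, n = 4) and 21.9% ± 7.27 (SD, n = 3). This difference of 8.89 percentage points was 4.87 without CD34-positive replicate 2 and up to 12.3 with other libraries left out. Dnmt1 made up 66.3% to 85.2% of the sum and Dnmt3a 3.72% to 11.9%. Between the 2 de novo enzymes, the ratio of Dnmt3b to Dnmt3a was 5.04, 3.99, 0.420 and 1.37 in CD34-negative and 5.09, 8.06 and 3.15 in CD34-positive libraries. It was higher in the CD34-positive library within each number, by very little in number 3, and Dnmt3a exceeded Dnmt3b only in CD34-negative replicate 3.

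**Figure D3:**
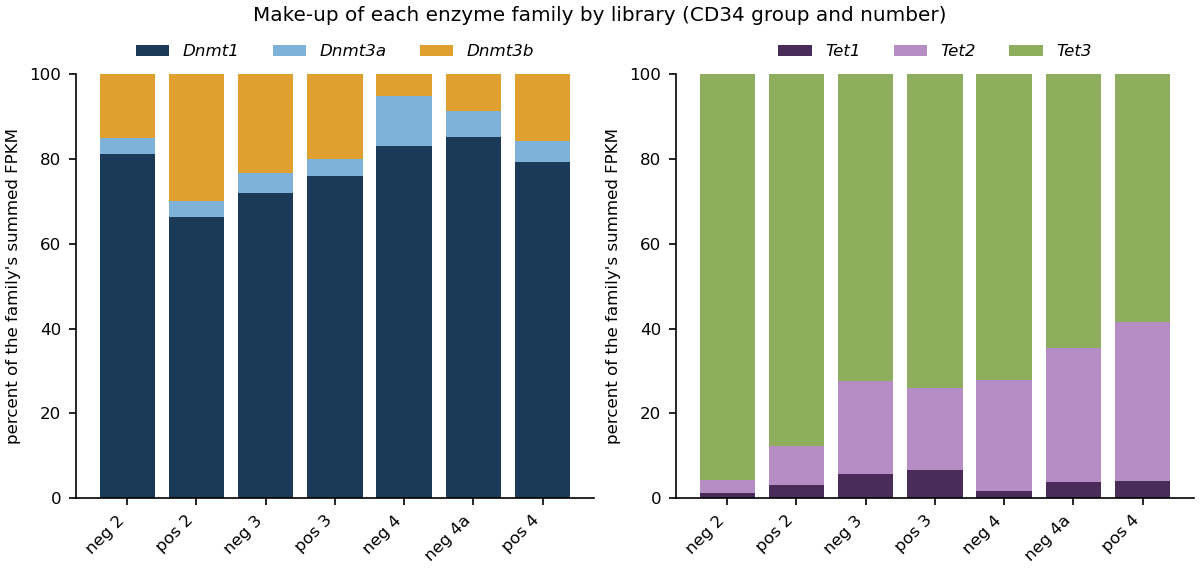
Share of each enzyme in the summed FPKM of its family, in percent, for the 7 libraries, labelled by CD34 group (neg, pos) and description number; stacked bars start at 0 and reach 100. Dnmt1 holds most of the methyltransferase sum (66.3% to 85.2%) and Tet3 most of the Tet sum (58.4% to 95.7%) in every library.

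Dnmt3b was followed beside the sorted marker itself. Across the 4 CD34-negative libraries both genes had the same order, with replicate 1 highest (26.9 FPKM of Dnmt3b, 91.8 of Cd34), then replicates 2 and 4, and replicate 3 lowest (3.58 and 2.67 FPKM). Over all 7 libraries Pearson's r of the log2 values was 0.95, and Cd34 ranked 73 of 7247 genes by likeness to Dnmt3b. In the 3 CD34-positive libraries the order was not shared: replicate 1 had the lowest Cd34 and the highest Dnmt3b (34.7 FPKM), and replicate 2 had the highest Cd34 and the middle Dnmt3b (31.3 FPKM). The points share the sort and the library numbers, and this is a description of 7 libraries. CD34-negative replicate 1, whose Dnmt3b level was above that of CD34-positive replicate 3, was thus also the CD34-negative library with the most Cd34 RNA.

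**Figure D4:**
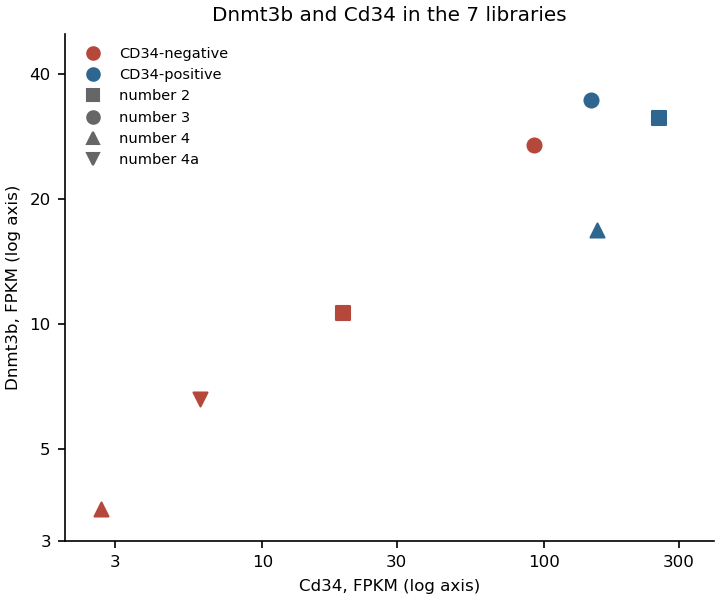
Dnmt3b against Cd34 in the 7 libraries, both in FPKM on log axes; colour marks the CD34 group and shape the description number. In the 4 CD34-negative libraries Dnmt3b runs from 3.58 to 26.9 FPKM in the same order as Cd34, and the 3 CD34-positive libraries, at 147 to 256 FPKM of Cd34, do not follow that order.

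Among the dioxygenases, Tet3 was the most abundant in every library. It was at 10.8, 9.68, 23.7 and 14.8 FPKM in CD34-negative and at 12.9, 7.19 and 11.7 FPKM in CD34-positive libraries. The groups overlapped, with CD34-negative replicate 3 well above the rest. CD34-positive libraries averaged 10.6 ± 3.03 FPKM (SD, n = 3), and CD34-negative libraries 14.8 ± 6.37 FPKM (SD, n = 4). The difference was -0.40 (SE 0.37, interval -1.25 to 0.46; adjusted p = 1.0) and -0.30 with the block (adjusted p = 0.494). It was -0.15 without CD34-negative replicate 3 and -0.16 without CD34-positive replicate 2. It was 0.24 in number 3, -0.38 in number 2 and -0.64 in number 4.

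Tet2 ranged more widely between library numbers than between CD34 groups. It was at 3.27, 0.322, 8.58 and 7.31 FPKM in CD34-negative and at 3.41, 0.759 and 7.51 FPKM in CD34-positive libraries, 26.6-fold from the lowest to the highest. Within equal numbers the CD34 difference was 0.05 in number 3, 0.41 in number 2 and -0.07 in number 4. The number 2 values, both under 1 FPKM, were farther apart in FPKM than 0.41 shows, because 1 was added to each value. Over all libraries it was -0.19 (SE 0.76, interval -1.92 to 1.55; adjusted p = 1.0), and with the block it was 0.11 with a much narrower interval of -0.27 to 0.49 (adjusted p = 0.722).

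Tet1 was near the lower limit of the measurement. It was at 0.845, 0.112, 0.538 and 0.846 FPKM in CD34-negative and at 1.14, 0.256 and 0.820 FPKM in CD34-positive libraries, and since 1 library alone reached 1 FPKM it was not among the tested genes. Without the filter on low values its difference was 0.13 (SE 0.26, interval -0.52 to 0.77; adjusted p = 1.0). It was 0.21 in number 3, 0.17 in number 2 and 0.11 in number 4, where it was 0.24 against the library numbered 4 and -0.02 against 4a.

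Within the Tet family, Tet3 held 72.4%, 95.7%, 72.2% and 64.5% of the summed FPKM in CD34-negative and 74.0%, 87.6% and 58.4% in CD34-positive libraries. Tet2 held 3.19% to 37.5% and Tet1 1.11% to 6.49%. The highest Tet3 shares and the lowest Tet2 shares were those of the number 2 libraries of both groups. The CD34 differences of the Tet2 and Tet3 shares changed sign with the library left out, from -6.39 to 7.72 and from -9.99 to 4.61 percentage points.

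Ordered by level, CD34-positive cells had Dnmt1 above Dnmt3b, Dnmt3b above Tet3 and Tet3 above Dnmt3a, with no overlap between neighbouring ranges. Dnmt3a and Tet2 overlapped, as did Tet2 and Tet1. In CD34-negative cells Dnmt1 stood above Tet3 without overlap, and below it Tet3, Dnmt3b, Dnmt3a, Tet2 and Tet1 each overlapped the next. Tet3 exceeded Dnmt3b in 2 of the 4 CD34-negative libraries and in none of the CD34-positive ones. Among all tested genes, Dnmt1 lay at the 83.4 to 95.1 percentile of its library, Dnmt3b at 17.7 to 74.7 and Tet2 at 2.18 to 40.3.

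Because the libraries numbered 4 stood apart in their ribosomal share, the 5 tested genes were also compared between library numbers in a fit with CD34 as a term. Tet2 rose in number 4: its 3 libraries were at 7.31 to 8.58 FPKM and the other 4 at 0.322 to 3.41 FPKM, without overlap, a difference of 1.79 (SE 0.48, interval 0.67 to 2.91; limma adjusted p = 0.0241). Dnmt3b fell in the same libraries, by 1.34 on the log2 scale (SE 0.36; adjusted p = 0.0265). In this comparison 5.93% of tested genes passed as higher and 30.7% as lower, 10.6% were higher without overlap, and the median of all genes was -0.29. This split depended on scaling: under median-ratio scaling the median was -0.02 and 14.4% passed as higher and 16.4% as lower, and under quantile scaling these shares were 16.5% and 16.0%. Tet2 and Dnmt3b passed in the same directions under both, at 2.05 and 1.85 for Tet2 and -1.04 and -1.11 for Dnmt3b. Both calls were lost when some single libraries were left out. That of Tet2 was lost without CD34-negative replicate 3 (1.34 to 2.18 over the libraries left out; adjusted p = 0.0759), CD34-negative replicate 4 (0.0715), CD34-positive replicate 2 (0.0521) or CD34-positive replicate 3 (0.104). That of Dnmt3b was lost without CD34-negative replicate 3 (0.0831), CD34-negative replicate 4 (0.0596) or CD34-positive replicate 3 (0.0785). Leaving out any other single library kept both. Tet3 was 0.59 higher (adjusted p = 0.143), which passed under median-ratio scaling at 0.88 (adjusted p = 0.0392) and under quantile scaling at 0.87 (adjusted p = 0.0385). Dnmt1 (-0.15) and Dnmt3a (0.39) did not pass, and the sign of Dnmt1 turned under both scalings.

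Whether the CD34 difference itself differed between number 4 and the other numbers was tested in a fit without the number as a block. Differences among the other numbers therefore went into its error. For Tet2 the SE was 1.05, beside 0.16 for its CD34 difference with the block. With errors of this size a lack of calls cannot decide the question, and no conclusion is drawn from the interaction term. It was 0.68 for Dnmt3b, -0.03 for Dnmt1, -0.59 for Dnmt3a, -0.30 for Tet2 and -0.57 for Tet3, each with an adjusted p of 1.0. No tested gene passed this test by limma (0%), and an unadjusted p under 0.05 was reached by 2 higher (0.0216%) and 15 lower genes (0.162%).

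Transcript length moved with the library numbers. Among 8726 tested genes with a length in the annotation, the median difference of number 2 from number 3 went from 0.27 for transcripts under 2 kb to -0.87 for those over 8 kb, and that of number 4 from number 3 went from -0.80 to 0.17. Dnmt3a (9685 bases), Tet1 (14369), Tet2 (9179) and Tet3 (10904) are in the longest class, Dnmt1 (5870) and Dnmt3b (4320) between 4 and 6 kb. Tet2 was -1.51 in number 2 and 1.01 in number 4 relative to number 3, on the same side as its length class and farther from 0. Dnmt3b was -1.62 in number 4, where its class had a median of -0.19. The CD34 difference of the 4 to 6 kb class had a median of 0.07 in number 3, 0.24 in number 2 and -0.03 in number 4, beside 0.35, 1.47 and 1.60 for Dnmt3b and 0.66, 0.28 and 0.44 for Dnmt1. The part of length in these results was not tested.

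**Figure D5:**
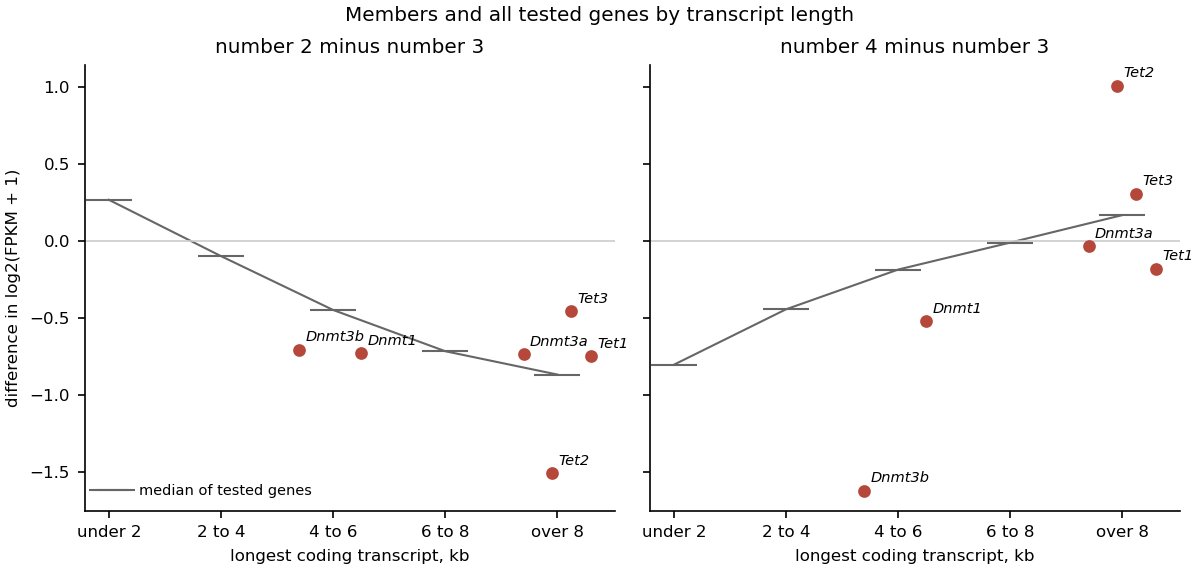
Difference of library numbers on the log2(FPKM + 1) scale by class of the longest coding transcript in kb, number 2 minus 3 on the left and number 4 minus 3 on the right; grey marks joined by a line are medians of tested genes and red points the 6 genes, spread sideways within their class for legibility. Tet2 lies beyond the median of its class in both panels (-1.51 and 1.01), and Dnmt3b lies far below its class in number 4 (-1.62).

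The genes whose pattern over the 7 libraries was most like each member were taken by Pearson's r of the log2 values among tested genes with a mean of at least 5 FPKM. For Dnmt3b they were Hspa12b (0.99), Pttg1ip (0.99) and Pglyrp1 (0.99). For Dnmt1 they were Fbf1 (0.94), Eapp (0.94) and Brd1 (0.93), and for Dnmt3a Sdccag8, Itpripl2 and Iqgap1. Tet1 was most like Foxn3, Rbm6 and Phf14, Tet2 most like Atxn7, Srrm2 and Rictor, and Tet3 most like Cnst, Zfp609 and Crem. Among the members, Dnmt3a, Tet2 and Tet3 had r of 0.77 to 0.79 with each other, and Dnmt3b had -0.74 with Tet3 and -0.44 with Tet2. All these values share the library numbers and transcript lengths given above.

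The partners and suppliers of these enzymes were described from 8 lists of 78 genes, of which 70 were tested. None passed the threshold, with or without the block. 24 were higher and 10 lower within all 3 numbers, against 29.0% and 25.0% of all tested genes, and their median difference was 0.15. Of 7 partners of maintenance methylation, 5 were higher within all numbers and none lower, with a median of 0.55. This median is the value of Pcna, which was 0.11 with the block and -2.66 in number 4 against numbers 2 and 3. Within numbers Pcna was 0.01 in number 3, 0.44 in number 2 and -0.07 in number 4. Number 4 holds 2 of 4 CD34-negative but 1 of 3 CD34-positive libraries. The median of any list in the fit of 2 groups can therefore also carry differences between numbers.

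Hells, a chromatin remodeller needed for methylation of repeats, was at 14.4, 7.70, 11.4 and 11.9 FPKM in CD34-negative and at 22.4, 19.8 and 24.9 FPKM in CD34-positive libraries. Its groups did not overlap, which held for 2.67% of tested genes in this direction. The difference was 0.95 (SE 0.29; adjusted p = 0.647), and 0.97 with the block (adjusted p = 0.0931). Uhrf1, the partner of DNMT1, had a CD34-positive mean of 113 ± 62.6 FPKM (SD, n = 3) and a CD34-negative mean of 80.1 ± 55.8 FPKM (SD, n = 4). Its largest difference was between library numbers (-1.93 in number 4, adjusted p = 0.000345).

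Of 8 genes that work with the de novo enzymes 6 were tested, and 5 were higher within all numbers, as were 29.0% of all tested genes. Their median in the fit of 2 groups was 0.35. Mphosph8, a subunit of the silencing complex HUSH, had a CD34-positive mean of 14.3 ± 3.84 FPKM (SD, n = 3) against 6.26 ± 3.04 FPKM (SD, n = 4) in CD34-negative libraries (1.12, SE 0.37; adjusted p = 0.686). Dnmt3l, the cofactor without catalytic activity, was listed at 0 in all 7 libraries, as was Cxxc4.

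Of 14 partners of the Tet enzymes and genes of base repair 11 were tested, 2 higher and 2 lower within all numbers, with a median of 0.11. Among all tested genes 29.0% were higher and 25.0% lower in this way. Gadd45a, a stress-induced gene linked to demethylation, was at 17.0, 15.7, 11.8 and 30.9 FPKM in CD34-negative and at 10.1, 4.75 and 6.03 FPKM in CD34-positive libraries, without overlap (-1.29, SE 0.39; adjusted p = 0.647), as were 3.01% of tested genes in this direction. Its relative Gadd45b was on the other side, with a CD34-positive mean of 8.93 ± 4.30 FPKM (SD, n = 3) against 3.38 ± 3.95 FPKM (SD, n = 4) in CD34-negative libraries (1.44, SE 0.57; adjusted p = 0.796).

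The counts of the next lists stand beside 29.0% of all tested genes higher and 25.0% lower within all numbers. Of 8 genes that make or use 2-oxoglutarate, the cosubstrate of the Tet enzymes, 2 were higher and 2 lower within all numbers, with a median of 0.10. Of 11 genes of methyl donor supply 3 were higher and 1 lower (median 0.17). Of 16 genes of DNA replication, during which DNMT1 acts, 3 were higher and 4 lower (median 0.15). Of 9 tested readers of methylated CpG 2 were higher and 1 lower (median -0.01). Both tested deaminases were higher, Apobec1 at 1.31 ± 0.390 against 0.478 ± 0.126 FPKM (SD, n = 3 and 4) and Apobec3 at 53.6 ± 5.01 against 39.5 ± 8.18 FPKM. The groups of neither gene overlapped, which held for 2.67% of tested genes in this direction. Apobec1 met the filter of 1 FPKM in 3 libraries only through the CD34-positive libraries. Its direction and lack of overlap were therefore largely set by the filter.

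Strand use in counting is not given in the sources used here. In GENCODE, genes on the opposite strand overlap Dnmt3a (Dnmt3aos), Dnmt3b (Dnmt3bos), Tet2 (Gm42567) and Tet3 (B230319C09Rik), so their reads may be mixed. Of these B230319C09Rik alone is in the table by that name, at no more than 0.557 FPKM.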

How the data were processed

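RNA of 7 EML libraries was measured by sequencing. The deposited values are FPKM per gene symbol. The authors used TopHat2, TopHat and Cuffdiff and named the builds mm9 and mm10, per the submitters' processing notes. The sources used here do not give versions, annotation or strand use. FPKM are no counts, so no counting interval can be given. Of 20464 rows, the 322 of 105 repeated symbols were left out. The 9259 genes that reached 1 FPKM in 3 or more libraries were fitted as log2(FPKM + 1) by limma (version 3.58.1, R version 4.3.3) with its trend option. Tests were two-sided at a threshold of 0.05 after Benjamini-Hochberg adjustment over these genes. The log2 scale understates changes of low genes. The fit was tested on simulated data.

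The description numbers were taken to pair libraries: deviations from the group means correlated at 0.70 (number 3), 0.92 (number 2), and 0.82 and 0.85 (number 4), against -0.86 to 0.37 for unlike numbers, so a fit with the number as a block was run. Deviations from a mean cancel out within each group, so the low values for unlike numbers are partly built in. Transcript lengths and overlapping genes are from GENCODE, promoters from RefSeq. Named genes are the 6 members, Cd34, the 3 genes most like each member, up to 4 genes of each list by p, and any tested direct partner. Members and lists were chosen with earlier results of these data known. 1 list gene is not reported here. Genes listed at 0, the cell type markers, the antisense genes and Mir703 were named outside this rule, after their values were seen. Alternatives were other blocks, pseudocounts, filters, scalings and libraries left out.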

Additional observations from a re-analysis of the deposited data

How the results depend on the processing

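No gene passed in the fit of 2 groups. Without a filter 2 did (Agpat9 and Ltf, named after their values were seen, both at differences under 0.2). With each library left out in turn, 0 to 7 genes passed as higher and 0 to 3 as lower, and 0 to 231 and 0 to 125 with the replicate block: 231 and 81 when CD34-negative replicate 1 was left out, 230 and 81 when its CD34-positive counterpart was, and 32 and 125 when CD34-negative replicate 3 was. Genes of the 8 lists past the threshold were 0 throughout, except for 2, Hells and Gadd45b, in each of the blocked fits that left out a replicate 1 library.

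The CD34 difference kept its sign for Dnmt1 (0.22 to 0.68 with libraries left out, 0.37 to 0.53 with the block), Dnmt3b (1.02 to 1.89; 0.91 to 1.55) and Tet3 (-0.56 to -0.15; -0.53 to -0.07). That of Dnmt3a turned under median-ratio scaling (-0.035), quantile scaling (-0.055) and without both number 3 libraries (-0.076), and ran from -0.18 to 0.28 with libraries left out (-0.00068 to 0.36 with the block). That of Tet2 turned with the description number as replicate block (0.11), the title number as block (0.10), number 4 as a term (0.11), the mean of CD34-negative replicates 3 and 4 (0.13) and numbers 2 and 3 alone (0.23), and ran from -0.79 to 0.41 (-0.02 to 0.23 with the block, 0.14 without either replicate 1 library). Tet1 ran from -0.04 to 0.34. The block changed no call of a member with all libraries in.

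The interaction of Dnmt1 turned under median-ratio (0.019) and quantile scaling (0.076) and ran from -0.11 to 0.037. Between library numbers, Dnmt1 turned under both scalings (0.16 and 0.77; -0.31 to 0.0015 with libraries left out), Tet3 passed (0.88 and 0.87), Dnmt3b ran from -1.61 to -0.95 and Tet2 from 1.34 to 2.18. The causes were not tested. The number of fragments is unknown, so the precision of low values such as those of Tet1 cannot be given.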
